A study of Mus musculus with 2 samples.

Results

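Cells with RNA of goblet secretory genes were sought among single cells of KPPC mouse pancreatic tumours, in 1 library from mice given vehicle and 1 library from mice given takinib. A barcode was a member when it held at least 5 UMIs of Muc2 plus Spink4, where a UMI (unique molecular identifier) stands for 1 captured transcript. It also needed at least 1 UMI over Krt8, Krt18, Krt19 and Epcam, no UMI of Cd79a, Cd3e or Pecam1, and at most 2 UMIs over C1qa, C1qb and C1qc. Barcodes entered with 1000 UMIs or more, 500 genes or more and no more than 20% mitochondrial UMIs, and 108 of 36662 such barcodes were members. In vehicle they were 67 of 9872 barcodes, 0.679% (exact 95% interval 0.526 to 0.861). In takinib they were 41 of 26790 barcodes, 0.153% (0.110 to 0.208). The other epithelial cells, with at least 5 UMIs of the 4 epithelial genes and fewer than 5 of Muc2 plus Spink4, numbered 1590 in vehicle and 1912 in takinib.

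KPPC is the name the labels give to the mouse model, which develops pancreatic tumours, and they give neither the alleles nor the Cre driver. All mice carried this genotype and were 6 weeks old at treatment, and 1 group received vehicle and the other takinib at 50 mg/kg, both for 14 days. The compound takinib inhibits TAK1, a kinase that the gene Map3k7 encodes and that lies upstream of NF-kB and AP-1. The number of mice behind a library is not given in the labels. With 1 library per group there was no test between treatments, no p-value is given, and every interval covers counting error alone.

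Goblet cells are the mucus-secreting cells of the intestinal lining. They pack the gel-forming mucin MUC2 with partner proteins such as TFF3, FCGBP, CLCA1, ZG16 and the disulfide isomerase AGR2, and the transcription factors ATOH1 and SPDEF set their fate. They are not a usual cell of the pancreas, whereas duct lesions of the pancreas can make gastric-type mucus with MUC5AC, trefoil factor TFF1 and the gastrokines, as stomach pit cells do. SPINK4, a small protease inhibitor, belongs to the goblet products and was 1 of the 2 genes of the gate.

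The name goblet-like held in vehicle alone. Of the 67 vehicle members, 48 held at least 2 Muc2 UMIs and are called Muc2-bearing cells, and the remaining 19 passed the gate through Spink4 with 0 or 1 Muc2 UMI and are called Spink4-only cells. All 41 takinib members were Spink4-only, with 1 Muc2 UMI in 1 cell and none in the other 40. This split was drawn after the values were seen. The 5 markers of these cells are Muc2, Spink4, Agr2, Mptx1 and Tff3, of which the gate used Muc2 and Spink4. Mptx1 was at 0 UMIs in every takinib member, and it was at 0 in all 26790 takinib barcodes past the filters. Muc2 reached at most 3 UMIs in any takinib barcode, over 38 UMIs in all, against 4835 UMIs and a highest cell of 452 in vehicle. The takinib members are therefore named by their gate and not as goblet-like cells below.

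**Figure D1:**
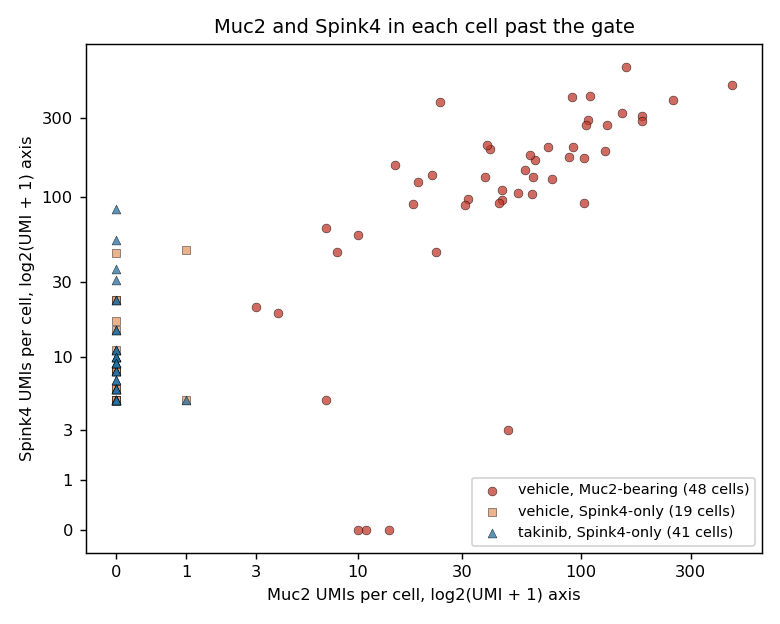
Muc2 (x axis) against Spink4 (y axis) in UMIs per cell on log2(UMI + 1) axes, 1 point per member: 48 Muc2-bearing and 19 Spink4-only vehicle cells and 41 Spink4-only takinib cells. Muc2-bearing cells spread to 452 Muc2 and 606 Spink4 UMIs, while every takinib cell sits at 0 or 1 Muc2 UMI with at most 84 Spink4 UMIs.

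The libraries differed in more than treatment. The vehicle matrix lists 704261 barcodes down to 0 UMIs and the takinib matrix 34158 with at least 500, and the kept barcodes had median mitochondrial shares of 8.68% and 1.84%. Y-linked UMIs were in 26 of the 48 Muc2-bearing and 10 of the 19 vehicle Spink4-only cells and in no takinib cell, while Xist was in 40 of the 41 takinib members and in 3 vehicle members. Of the other epithelial cells in vehicle, 816 held Y-linked UMIs, 260 held Xist and 51 held both, and in takinib 1742 held Xist and none a Y-linked UMI. Library, animals and treatment cannot be told apart with 1 library per group. The libraries shared 400 kept barcodes, and 3 vehicle and 1 takinib member had a barcode also kept in the other library. Among the goblet-like and other epithelial cells together, members were 4.04% (3.15 to 5.11) in vehicle and 2.1% (1.51 to 2.84) in takinib, and the Muc2-bearing cells were 48 in vehicle and 0 in takinib. Taking 3 cells as the limit for a count of 0, the share could be up to 0.0112% of the takinib barcodes, which is not a Clopper-Pearson limit.

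The sequences upstream of 5 genes are shown first, because these genes set members apart: Muc2, Mptx1 and Reg4 were high in Muc2-bearing cells, and Gkn1 and Gkn2 in 23 of the 60 Spink4-only cells. Each is the 250 bases before the RefSeq start of the gene in GRCm38.p6, read 5′ to 3′ on the gene's strand. The windows are chr7:141690090-141690339 for Muc2, chr1:174330268-174330517 for Mptx1 and chr3:98221906-98222155 for Reg4, all on the plus strand. They are chr6:87350916-87351165 on the minus strand for Gkn1 and chr6:87373115-87373364 on the plus strand for Gkn2. Capitals mark matches to a GATA motif (AGATAA or its reverse TTATCT), a FOXA motif (TGTTTAC or GTAAACA) and E-boxes of the ATOH1 type (CAGCTG, and CAGATG or CATCTG), searched on both strands.
Muc2: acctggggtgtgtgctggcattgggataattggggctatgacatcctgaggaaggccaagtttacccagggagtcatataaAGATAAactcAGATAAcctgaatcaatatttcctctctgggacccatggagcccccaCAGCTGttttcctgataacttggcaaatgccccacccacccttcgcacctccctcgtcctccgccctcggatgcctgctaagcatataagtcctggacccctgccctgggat
Mptx1: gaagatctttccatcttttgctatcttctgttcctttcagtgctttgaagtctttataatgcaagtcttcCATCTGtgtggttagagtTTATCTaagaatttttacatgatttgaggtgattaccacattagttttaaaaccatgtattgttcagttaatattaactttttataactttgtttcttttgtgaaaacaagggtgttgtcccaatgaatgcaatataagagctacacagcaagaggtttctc
Reg4: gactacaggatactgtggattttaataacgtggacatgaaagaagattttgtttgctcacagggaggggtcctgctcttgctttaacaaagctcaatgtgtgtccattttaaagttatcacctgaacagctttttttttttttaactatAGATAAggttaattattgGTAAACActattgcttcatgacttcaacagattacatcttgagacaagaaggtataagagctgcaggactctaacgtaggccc
Gkn1: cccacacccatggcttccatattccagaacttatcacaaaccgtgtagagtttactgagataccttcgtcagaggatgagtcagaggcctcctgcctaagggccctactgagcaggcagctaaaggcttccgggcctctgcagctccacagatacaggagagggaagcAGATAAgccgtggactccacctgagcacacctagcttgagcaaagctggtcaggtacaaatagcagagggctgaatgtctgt
Gkn2: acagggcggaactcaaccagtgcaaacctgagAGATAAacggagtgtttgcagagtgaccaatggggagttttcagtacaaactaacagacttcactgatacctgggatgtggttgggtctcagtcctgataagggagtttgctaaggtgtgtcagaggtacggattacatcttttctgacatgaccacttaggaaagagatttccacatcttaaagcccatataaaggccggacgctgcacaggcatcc
The GATA letters were in these 5 of the 8 windows looked up, and not in those of Agr2, Fcgbp and Atoh1. They lay at -169 and -159 in Muc2, -162 in Mptx1, -101 in Reg4, -82 in Gkn1 and -218 in Gkn2, counted in bases before the start. Over all 32851 windows of this length 9.99% held them. An E-box was in the Muc2 window at -112 and in the Fcgbp window at -208 (CAGCTG, in 13% of all windows) and in the Mptx1 window at -180 (CATCTG or its reverse, in 14.4%). The FOXA letters were in the Reg4 window at -83, and in 3.17% of all windows. The letters TTTATT or AATAAA, the core bound by CDX and posterior HOX factors, were in none of the 8 and in 18.1% of all. A match describes the letters and not a bound site. Of 13 genes looked up, 8 had a window, and Spink4, Tff3, Zg16, Tff1 and Muc5ac had none.

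In the GENCODE annotation of GRCm38, Muc2 spans chromosome 7, positions 141690340 to 141754693, and Spink4 chromosome 4, positions 40920052 to 40931395, both on the plus strand. Mptx1 lies on chromosome 1 from 174330518 to 174332873 on the plus strand, and Agr2 on chromosome 12 from 35992907 to 36004087 on the plus strand. Tff3 lies on the minus strand of chromosome 17 from 31125306 to 31129646, on the same chromosome as the gastric trefoil gene Tff1, at 31161395 to 31165277. All 6 are protein-coding genes.

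The 48 Muc2-bearing cells held 336921 UMIs, with a median of 6500 per cell and a median mitochondrial share of 8.0%, against 5871 UMIs and 8.20% in the other vehicle epithelial cells. Levels below are counts summed over the cells of a class and given as CPM, the class's counts scaled to a total of 1000000. Muc2 ranged from 3 to 452 UMIs per cell with a median of 50.5, and came to 10397 CPM (exact Poisson interval 10056 to 10747) against 7.43 CPM in the other vehicle epithelial cells. Spink4 ranged from 0 to 606 UMIs with a median of 133.5 and came to 24169 CPM (23647 to 24700) against 22.9. Spink4 was thus the more abundant of the gate's genes in these cells, though 3 of the 48 held none. Muc2 and Spink4 chose the members, and their levels are a description.

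Among the other goblet products, Mptx1, Agr2 and Fcgbp were each present in most of these cells. Mptx1, a mucosal pentraxin that the gate did not use, ranged from 0 to 529 UMIs with a median of 34.5, and 42 of 48 cells held it. Its level was 14647 CPM (14242 to 15062) against 5.21 CPM in other vehicle epithelial cells, a log2 ratio of 9.91 (9.78 to 10.04) after adding 10 CPM to each side. Agr2, which folds MUC2 in the endoplasmic reticulum, ranged from 0 to 224 UMIs with a median of 41.5 and 47 of 48 cells held it. Its level was 7705 CPM against 202 CPM, a log2 ratio of 5.19 (5.11 to 5.26). Fcgbp, which binds within the mucus gel, was held by 36 cells, with a median of 2 UMIs and a maximum of 120, at 1638 CPM against 11.4. Mptx1 and Agr2 were general to the class, while Fcgbp was high in few cells.

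Most Tff3 and Zg16 RNA came from few cells. Tff3, the intestinal trefoil factor, was in 36 cells and had a median of 3 UMIs and a maximum of 228, and 3 cells held 52.1% of its UMIs. Its level was 3119 CPM against 5.64 CPM in other vehicle epithelial cells. Zg16, a lectin of the mucus that binds bacteria, was held by 19 cells with a median of 0 and a maximum of 688 UMIs, and 1 cell held 67.3% of all its UMIs. The class level of Zg16, 3033 CPM, therefore comes mostly from a single cell, though 8 cells held at least 10 UMIs. Clca1, a mucus-processing protease, was at 347 CPM in 13 cells, against 30.2. Retnlb, a goblet product, was at 104 CPM in 11 cells, and none of its UMIs fell in the 1590 other epithelial cells. Ang4 was at 0, and the 13 Itln1 UMIs behind 38.6 CPM came from 1 cell.

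Reg4, a lectin of the deep-crypt secretory cells of the colon, was at 1448 CPM and in 37 of 48 cells, with a median of 4 and a maximum of 62 UMIs. In the other 1590 vehicle epithelial cells it was at 0.427 CPM, from 5 UMIs. Counting the secreted products as 1 list of 14 genes, 11 had at least 50 summed counts in 1 of the classes. Of these 10 had a log2 ratio above 1 and 1 had a ratio below -1, but Muc2 and Spink4, which chose the cells, are among the 10. Without that pair 8 of 9 were above 1, with a median of 6.26. Over all 11381 genes so measured 5.75% were above 1 and 14.7% below -1, and the median was -0.23. The 1 lower gene was Wfdc2, a protease inhibitor of duct cells, at 232 against 587 CPM (log2 ratio -1.30).

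The transcription factors of goblet fate were present at low counts. Atoh1, the factor that commits cells to the secretory lineage, was found in 29 of the 48 cells at 1 to 7 UMIs, 187 CPM (144 to 239). A single Atoh1 UMI fell in the 1590 other epithelial cells, and none fell in any of the 26790 takinib barcodes. Spdef, which matures goblet cells, was at 74.2 against 9.82 CPM, in 15 of the 48 cells. Creb3l1, a membrane-bound factor of secretory cells, was in 42 cells at 508 against 55.9 CPM. Of the 12 factors listed 10 had enough counts and 8 lay above 1, with a median of 2.03. The other members above 1 were Creb3l4, Foxa1, Foxa3, Klf4 and Hes6, and the remaining measured members, Foxa2 (0.89) and Xbp1 (0.79), were between the limits. Of Gfi1, under the count limit, 6 cells held a UMI.

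Enzymes that build the mucin's sugar chains followed in part. Of 20 listed genes 16 were measured, 8 lay above 1 and 1 below -1, and the median was 1.04. Fut2, the fucosyltransferase of secretory epithelia, was at 196 against 12.6 CPM (log2 ratio 3.18). St3gal6 was at 178 against 17.8 CPM (2.76), and Galnt12, which starts O-glycan chains, was at 249 against 30.7 CPM (2.67). C1galt1, which makes the core 1 structure, was at 297 against 114 CPM (1.30). St3gal1 was the member below -1, with 1 UMI in these 48 cells. B3gnt6 and St6galnac1 were at 0 UMIs in the Muc2-bearing cells.

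The machinery of the endoplasmic reticulum was higher for a minority of its genes. Of 22 listed and measured, 8 lay above 1, none below -1, and the median was 0.84. Pdia5, a disulfide isomerase, was at 211 against 16.7 CPM (3.05), and Ern2, the epithelial sensor of unfolded protein that goblet cells use, was at 134 against 16.9 CPM (2.42). Sec61b, part of the channel through which secreted proteins enter, was at 1626 against 605 CPM (1.41). The general chaperones Hspa5 and Hsp90b1 had ratios of 0.66 and 0.79, and the general sensor Ern1 -0.02.

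Genes of intestinal identity were present beside the goblet genes. Of 21 listed genes 17 were measured, 11 lay above 1 and 2 below -1, with a median of 1.63. Cdx1, an intestinal homeobox factor, was in 29 of 48 cells at 208 against 5.98 CPM (3.77). Sval1 was in 41 cells with a median of 11.5 and a maximum of 97 UMIs, at 2532 against 1.20 CPM (7.83). Cdx2, with 35.6 CPM in 9 cells, did not reach the count limit, and Fabp1, a small-intestinal lipid carrier, was at 0. The members below -1 were Krt20 (-2.23) and Slc26a3 (-1.20), which mark surface absorptive cells.

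Hoxb13, a homeobox gene of the hindmost body segments, was in 36 of the 48 Muc2-bearing cells at 1 to 6 UMIs, 252 CPM (202 to 312). It was in 35 of 1590 other vehicle epithelial cells at 7.69 CPM and in no takinib epithelial cell. Klk1, a tissue kallikrein, was in 46 cells with a median of 14 and a maximum of 58 UMIs, at 2119 against 10.8 CPM (6.67). Guca2a, the guanylin peptide that regulates salt and water secretion, was in 39 cells at 418 against 9.82 CPM (4.43). Hepacam2 was in 37 cells at 329 against 3.07 CPM, and Cd177 in 41 cells at 671 against 11.0. These genes were found in most of the cells, unlike Eln, whose 127 UMIs all came from 1 cell, and Spink1, found in 10 cells, although the ratios of both were above 4.

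Other epithelial products separated the Muc2-bearing cells further. Pigr, which carries antibodies across the epithelium, was in all 48 cells with a median of 14 UMIs, at 2300 against 220 CPM (3.33). Of the membrane mucins, Muc13 was in 47 cells at 1074 against 54.8 CPM (4.06), Muc3 was at 315 against 55.3 (2.31) and Muc4 at 166 against 35.3 (1.96). Muc1 was lower, at 47.5 against 271 CPM (-2.29). Paneth cell genes were close to absent: of 12 listed only Mmp7 was measured, Lyz1 was at 8.90 CPM and Ang4 and 7 defensins were at 0. Endocrine and tuft cell genes were low as well, with Chga, Chgb, Pou2f3 and Trpm5 at 0 UMIs in the 48 cells.

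Cell-cycle genes were higher in the Muc2-bearing cells, with 7 of 14 above 1, none below -1 and a median of 1.07. Mki67 was in 24 of 48 cells, with a maximum of 18 UMIs, at 267 CPM (215 to 328) against 39.7 CPM in the other vehicle epithelial cells (2.48). Top2a was at 226 against 42.5 CPM (2.16). The genes of DNA replication were nearer to the other cells, with ratios of 0.31 for Pcna and 0.43 for Mcm6. In 11 cells Mki67 reached 3 UMIs. Stem cell genes were mixed: Lgr5 was at 0 UMIs and Olfm4 at 1 UMI, while Lrig1 was at 95 against 29.6 CPM.

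Genes of the duct-type tumour cells were lower. Of 12 pancreatic duct genes 9 lay below -1 and none above 1, with a median of -1.70. Clu was at 825 CPM against 19262 (-4.53), and 25 of 48 cells held none. Spp1 was at 211 against 7339 CPM (-5.06), Onecut2 at 26.7 against 752 (-4.37) and Krt7 at 205 against 1057 (-2.31). Pdx1, the pancreatic identity factor, was at 0 UMIs in the 48 cells. Cdkn2a, a tumour suppressor gene used here to mark duct-type tumour cells, was in 4 of 48 cells at 62.3 against 704 CPM (-3.30), and Hmga2 was at 29.7 against 191 CPM (-2.34). Of 10 carcinoma and driver genes 5 were below -1, and Trp53 itself was at 38.6 against 27.3 CPM (0.38).

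The gastric genes were lower too, with 11 of 12 measured members below -1 and a median of -2.94. Their summed level was 653 CPM against 9865 CPM in the other vehicle epithelial cells. Muc5ac, the gastric surface mucin, was at 0 UMIs in all 48 cells. Tff1 was at 424 CPM, but 1 cell held 93.7% of its UMIs and 9 cells held any. Gkn1 or Gkn2 was found in 4 cells, at 32.7 and 11.9 CPM. The Muc2-bearing cells thus carried the intestinal and not the gastric mucus genes.

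**Figure D2:**
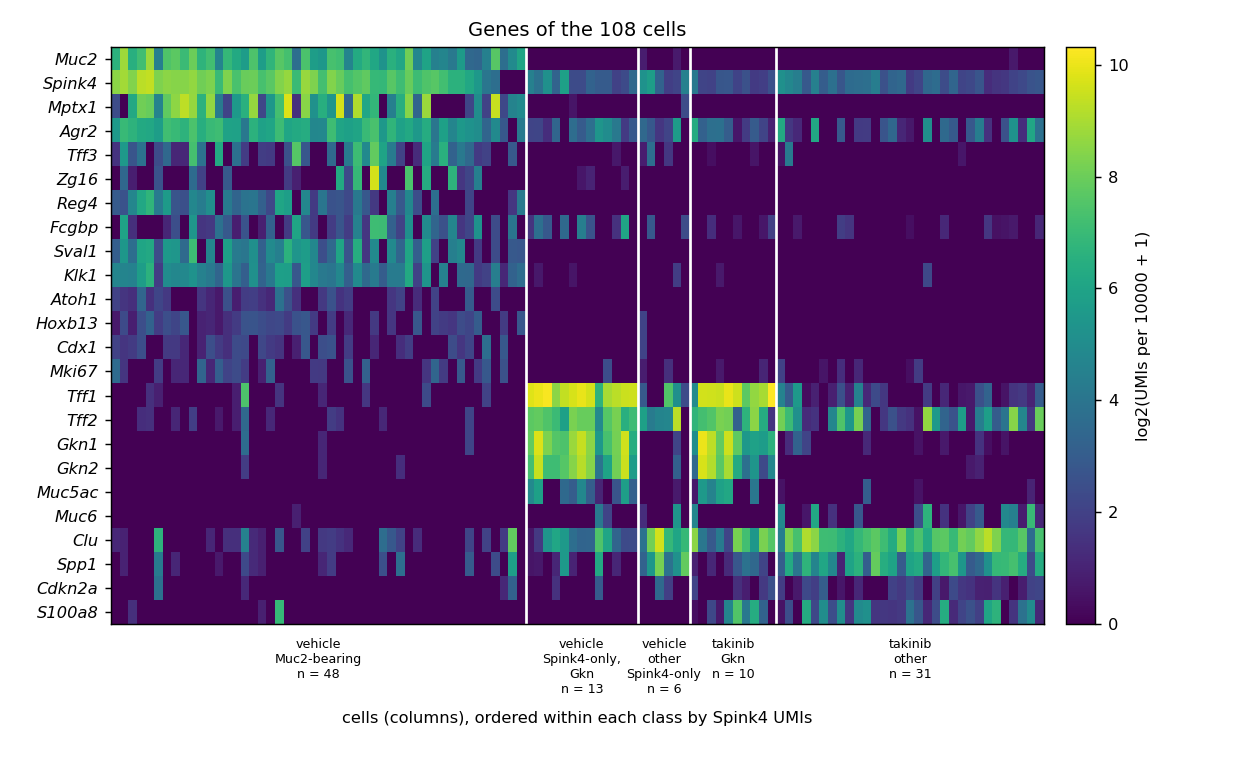
Level of 24 genes (rows) in each of the 108 members (columns), as log2 of UMIs per 10000 plus 1, grouped by class and ordered by Spink4 UMIs. Muc2, Mptx1, Reg4, Sval1 and Klk1 each have UMIs in 37 or more of the 48 Muc2-bearing cells, and Tff1 is high, beside Gkn1 and Gkn2, in the 13 vehicle and 10 takinib Spink4-only cells with at least 20 Gkn1 plus Gkn2 UMIs.

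Within the 48 Muc2-bearing cells the secretory genes did not all vary together. Correlations below are Spearman coefficients of CPM over these 48 cells of 1 library, given without a p, and the genes share each cell's depth. Muc2 went with Spink4 (0.72), Mptx1 (0.64), Agr2 (0.64) and Reg4 (0.62), and Spink4 with Reg4 (0.70). Tff3 went with Fcgbp (0.52) and Fcgbp with Zg16 (0.59), whereas Fcgbp ran against Reg4 (-0.34) and Muc2 against Tff3 (-0.24). The coefficient with total UMIs was 0.03 for Muc2 and 0.25 for Spink4.

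Counted by cells, 19 of the 48 held at least 10 Reg4 UMIs and 13 held at least 10 Tff3 UMIs, with 4 cells in both sets and 20 in neither. The Reg4 set thus held 4 of the 13 Tff3 cells and 19 of all 48. The Spearman coefficient of Tff3 and Reg4 was -0.24, and the sets are not read as separate. Whether any overlap given here differs from that of unrelated sets was not tested. Of the 11 cells with at least 10 Fcgbp UMIs, 8 were in the Tff3 set and 3 in the Reg4 set. Of the 8 with at least 10 Zg16 UMIs, 5 were in the Tff3 set and 2 in the Reg4 set. At least 10 Mptx1 UMIs were in 32 cells. The 11 cells with at least 3 Mki67 UMIs included 4 of the Reg4 set and 5 of the Tff3 set, with 2 in both and 4 in neither. Mptx1 and Mki67 ran against each other (-0.37).

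**Figure D3:**
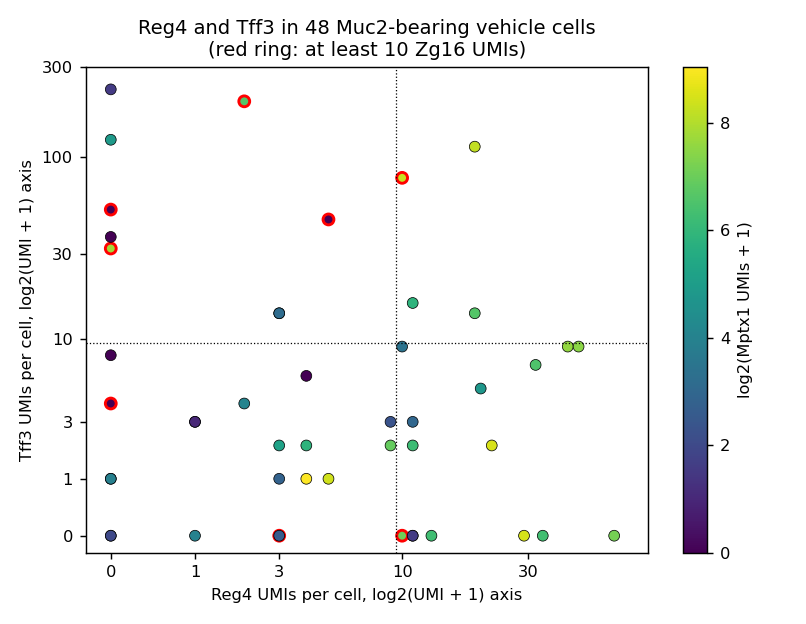
Reg4 (x axis) against Tff3 (y axis) in UMIs per cell on log2(UMI + 1) axes in the 48 Muc2-bearing vehicle cells, coloured by log2(Mptx1 UMIs + 1), with a red ring at 10 or more Zg16 UMIs and dotted lines at 10 UMIs. Of the cells, 4 hold at least 10 UMIs of both genes and 20 hold fewer than 10 of each, and the Spearman coefficient was -0.24.

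The same RNA was found at a low level in other vehicle cells. Muc2 had a UMI in 4.15% of 3111 vehicle C1q macrophages (median depth 3900 UMIs, at most 6 UMIs per cell), 4.19% of fibroblasts and 5.03% of other epithelial cells (median depth 5871). Mptx1 had one in 2.73% of those macrophages and 3.21% of the other epithelial cells. These shares were alike across cell types and are read as background, and vehicle barcodes of 1 to 100 UMIs held 107 CPM of Muc2, 112 CPM of Mptx1 and 173 CPM of Spink4. Muc2 chose the Muc2-bearing cells, so its share in them is fixed by the choice. Mptx1, which the gate did not use, was in 87.5% of them, and with each cell thinned to 1000 UMIs in 72.9% against 0.881% of other epithelial cells. It is a marker chosen with earlier results of these data known, so these shares are a description. Spink4 differed: 12.7% of other vehicle epithelial cells held it against 4.98% of macrophages. In takinib the shares were 12.2% of other epithelial cells (median depth 10614.5) and 0.269% of macrophages (median depth 6638.5).

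Barcodes close to the gate held Spink4 without Muc2 in both libraries. In vehicle 1 cell had a sum of 4 Muc2 plus Spink4 UMIs, just outside, and 5 cells had a sum of 5, just inside. In takinib 13 cells had a sum of 4 and 9 had a sum of 5. None of these vehicle or takinib cells held a Muc2 UMI. The takinib class thus shades into the other epithelial cells. At the upper end, 55 vehicle and 15 takinib cells would pass a gate of 10 UMIs.

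The 19 vehicle Spink4-only cells held 225052 UMIs at a median of 12622 per cell, close to the 15468 of the takinib members. Their Spink4 ran from 5 to 47 UMIs with a median of 8, or 1133 CPM (998 to 1281), and Agr2 was in 17 cells at 1231 CPM. Against the other vehicle epithelial cells, all 12 measured gastric genes lay above 1 with a median of 3.24. Over all 11375 genes measured 3.53% were above 1, 19.1% were below -1 and the median was -0.41. The summed gastric level was 139808 against 9865 CPM.

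Single gastric genes were very high in them. Tff1 ranged from 0 to 1928 UMIs per cell with a median of 451, at 56525 CPM against 2284 in other vehicle epithelial cells (log2 ratio 4.62). Gkn1, a gastrokine of stomach pit cells, ranged from 0 to 1527 UMIs with a median of 141, at 29913 against 744 CPM (5.31). Muc5ac was in 11 cells at 1395 against 35.9 CPM (4.94), and Gkn2 was at 24514 against 346 CPM (6.11). Leaving out the gate's genes, 5 of 8 measured goblet products lay above 1, namely Tff3, Fcgbp, Clca1, Agr2 and Sytl2. Fcgbp was at 724 CPM in 10 of the 19 cells, and 1 cell held 49.7% of its UMIs. Reg4, Retnlb, Atoh1 and Sval1 were at 0 UMIs in all 19 cells, and Mptx1 had 2 UMIs.

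Gkn1 plus Gkn2 divided the Spink4-only cells, a split also drawn after seeing the values. At least 20 UMIs of the pair, called the Gkn set, were in 13 of the 19 vehicle cells, 68.4% (exact interval 43.4 to 87.4), and in 10 of the 41 takinib cells, 24.4% (12.4 to 40.3). In the 13 vehicle cells Tff1 ran from 90 to 1928 UMIs, with a median of 783, and in the 10 takinib cells from 101 to 2615, with a median of 1227.5. Muc5ac was in 10 of the 13 and 6 of the 10 cells. Of the other 6 vehicle cells, 1 held 47 Spink4, 4 Hoxb13 and 4 Cdx1 UMIs beside 1 Muc2 UMI.

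The Muc2-bearing and the vehicle Spink4-only cells were also set directly against each other. Of 994 genes with enough counts in 1 of these small classes, 19.6% were above 1 in the Muc2-bearing cells, 9.96% were below -1 and the median was 0.27. All 12 gastric genes were below -1. Leaving out Muc2 and Spink4, on which the classes were drawn, 6 of 8 goblet products were above 1. The exceptions among the products were Wfdc2, at 232 against 609 CPM, and Clca1, at 347 against 307 CPM. In the Spink4-only cells 1 cell held 72.5% of the Clca1 UMIs. Agr2 was at 7705 against 1231 CPM (2.64) and Fcgbp at 1638 against 724 (1.17). Muc13 was at 1074 against 40.0 CPM, and Klf4, a factor of goblet and surface cells, was the reverse, at 217 against 564 CPM. RNA of other cell types moved with this comparison. The 10 stromal genes summed to 1241 against 44.4 CPM, with 4 of 4 measured genes above 1 (Col1a1, Col1a2, Col3a1 and Sparc) and 5 of the 10 at 0 in the Spink4-only cells. The 7 MHC class II genes summed to 1445 against 147 CPM, with 3 of 3 above 1. In the other vehicle epithelial cells these sums were 1067 and 1563 CPM, and their part in the comparison was not tested.

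Taken as 1 class of 67, the vehicle members had 8 of 9 goblet products other than Muc2 and Spink4, and 8 of 12 gastric genes, above 1 against the other epithelial cells, where 4.21% of 11384 genes were above and 11.3% below -1.

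The 41 takinib members held 699330 UMIs, at a median mitochondrial share of 3.49% against 7.70% in the vehicle Spink4-only cells. Spink4 ranged from 5 to 84 UMIs with a median of 8, at 751 CPM (688 to 818) against 15.4 CPM in the other takinib epithelial cells. Agr2 ranged from 0 to 267 UMIs with a median of 6, in 32 cells, at 1318 against 243 CPM (log2 ratio 2.39). Tff3 was in 5 of the 41 cells at 40.0 against 11.1 CPM, and 1 cell held 85.7% of its UMIs. Its ratio turned negative in cells with no Ptprc and at most 5 UMIs of S100a8 plus S100a9. Zg16, Reg4, Retnlb, Atoh1, Cdx1, Sval1 and Hoxb13 were at 0 UMIs in all 41 cells. Of the 5 markers, Agr2 was thus the 1 besides Spink4 that most takinib members held. Of 7 measured goblet products other than Muc2 and Spink4, 4 were above 1 (Tff3, Clca1, Agr2 and Sytl2), with a median of 1.21. Of 9 measured goblet factors 3 were above 1 (Spdef, Creb3l1 and Creb3l4). None of either list was below -1, and 0.955% of all genes measured were above 1. Spdef was in 20 of the 41 cells. Clca1 was in 5 cells, and 1 cell held 58.6% of its UMIs.

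Gastric genes were above the other takinib epithelial cells, with 11 of 12 above 1 and a median of 2.09. Over all 12676 genes measured in that comparison 0.955% were above 1, 3.33% were below -1, and the median was -0.13. Gkn1 was at 11342 against 1053 CPM (3.42), but 22 of the 41 cells held none and 1 cell held 43.9% of its UMIs. Tff2 was in 39 cells, with a median of 33 and a maximum of 764 UMIs, at 9233 against 3775 CPM (1.29). Muc6, the mucin of stomach glands, was in 17 cells at 811 against 255 CPM (1.63). Gastric RNA was therefore spread over the class through Tff2, and concentrated in a few cells for Gkn1.

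Duct genes in the takinib members were near those of the other takinib epithelial cells, with none of 12 past 1 in either direction and a median of 0.05. Clu ranged from 5 to 2038 UMIs with a median of 198, at 19873 against 18548 CPM (0.10). Limited to cells with no Ptprc and at most 5 UMIs of S100a8 plus S100a9, the Clu ratio was below -1. Spp1 was in 38 cells at 4643 against 5279 CPM (-0.18). Cdkn2a was in 28 of the 41 cells at 173 against 395 CPM, and 4 of 10 carcinoma and driver genes were below -1. The 31 takinib cells without the Gkn set held Clu at a median of 247 and Spp1 at a median of 77 UMIs, and all 31 held both.

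Genes high in the members of both libraries against the other epithelial cells were ranked by the smaller of the 2 ratios. After Spink4, a gate gene, the leading genes were Muc5ac, Gkn2, Gkn1, Lgals2, Gsdma2, Nqo1, Psca and Tff1. Lgals2, a galectin, was at 1529 CPM in the vehicle Spink4-only and 589 CPM in the takinib cells, against 58.1 and 62.6 CPM in the other epithelial cells. Nqo1, a quinone reductase, was at 347 and 130 CPM against 5.81 and 10.7. In the Muc2-bearing cells they were at 56.4 and 11.9 CPM. Others of the 15 leading genes were higher in the Muc2-bearing than in the vehicle Spink4-only cells, among them Agr2 and Lypd8, the latter at 739 against 467 CPM. Pla2g10, a secreted phospholipase, was at 181 CPM in the Muc2-bearing, 156 in the vehicle Spink4-only and 38.6 in the takinib cells, against 5.47 and 2.31 CPM. Lowest in both libraries was the digestive enzyme gene Ctrb1, at 17.8, 22.2 and 24.3 CPM in these classes against 481 and 868 CPM.

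**Figure D4:**
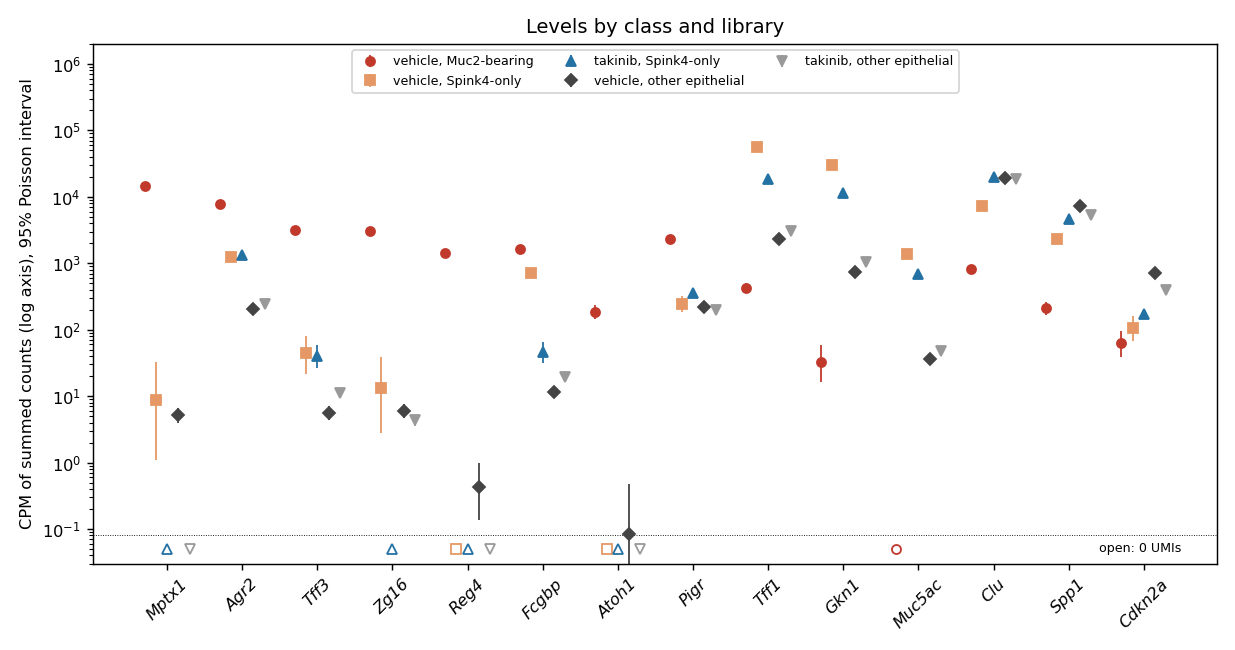
Level of 14 genes in CPM of summed counts on a log axis, with exact 95% Poisson intervals, in 3 classes of members and in the other epithelial cells of each library; open symbols mark 0 UMIs. Mptx1, Zg16, Reg4 and Atoh1 are at 0 in the takinib members, Muc5ac is at 0 in the Muc2-bearing cells, and Clu is at 19873 CPM in the takinib members against 825 CPM in the Muc2-bearing cells.

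A comparison of all members between libraries mostly set the Muc2-bearing cells against their absence. Of 2193 genes with enough counts 21.1% were past 1 in either direction, 12.9% being higher in takinib and 8.21% lower, and the median was 0.09. Of 9 goblet products other than the gate's genes 8 were below -1 and 1, Wfdc2, was above 1. Mptx1, at 8785 CPM over the 67 vehicle members and 0 in takinib, was at least 2048-fold lower, taking 3 UMIs over the class as the floor. On the same floor Zg16 was at least 425-fold and Reg4 at least 202-fold lower. Agr2 was lower by less, with a log2 ratio of -1.95 (-2.05 to -1.84).

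Spink4-only cells exist in both libraries and were compared with each other. The takinib sum is the deeper, so the limit of 50 summed counts lets in genes that are high in takinib more easily, and summed levels of whole lists are given beside the counts. Of 1978 genes measured 18.9% were past 1 in either direction, 15.7% above it and 3.19% below -1, and the median was 0.26. Of 12 gastric genes 8 were below -1 and 1, Muc6, was above 1, and their sum was 53131 CPM in takinib against 139808 in vehicle. Tff1 was at 18280 against 56525 CPM (-1.63), Gkn1 at 11342 against 29913 (-1.40) and Psca at 357 against 1755 (-2.26). Clu was higher in takinib, at 19873 against 7305 CPM (1.44), and 1 of the vehicle cells held 45.4% of the vehicle UMIs. Fcgbp was lower, at 45.8 against 724 CPM (-3.72), and Agr2 was at 1318 against 1231 CPM (0.10, -0.09 to 0.29). With a gate of 10 UMIs the Agr2 ratio was 1.92 and those of Gkn1 and Gkn2 were -0.67 and -0.55. Limited to cells with no Ptprc and at most 5 UMIs of S100a8 plus S100a9, the ratios were -0.95 for Tff1, -0.28 for Gkn1 and -0.37 for Gkn2, none of them past -1.

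Cells of the Gkn set were also set side by side. Gkn1 and Gkn2 chose them in both libraries and belong to the gastric list, so their likeness in these genes is in part set by the choice, and the values are a description. In those 10 takinib and 13 vehicle cells the gastric sum was 151505 against 179954 CPM. Without Gkn1 and Gkn2 it was 85624 against 105274 CPM, and of 10 such genes 2 were above 1 and 2 below -1, with a median of -0.33. There 9.35% of 535 measured genes were above 1 and 2.99% below -1. Tff1 was at 59829 against 75254 CPM (-0.33). The genes above 1 were Gkn3 and Muc6 and those below were Cldn18 and Psca. All takinib Muc6 UMIs there came from 1 cell, and the other 9 held none. Clu differed also here, at 13681 against 2729 CPM (2.32), though 1 takinib cell held 42.6% of its UMIs. The median of its per-cell CPM was 9464 in these takinib and 940 in these vehicle cells. In the Spink4-only cells outside the Gkn set the medians were nearer, at 15892 in takinib and 11760 in vehicle.

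Immediate-early and NF-kB genes, whose products act at the end of the pathways below TAK1, were higher in the takinib Spink4-only cells. Of 11 measured immediate-early and AP-1 genes all 11 were above 1, with a median of 2.71, and the whole list of 14 summed to 3400 against 653 CPM. Fos was at 417 against 40.0 CPM and Egr1 at 262 against 8.89 CPM. Of 7 measured NF-kB targets 6 were above 1, and the 20 listed genes summed to 5165 against 555 CPM. Cxcl2, a neutrophil chemokine, had 1174 UMIs in takinib and 0 in the 19 vehicle cells, and Nfkbia, the inhibitor that NF-kB induces, was at 259 against 107 CPM (1.20).

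The same lists were higher in the other epithelial cells of takinib as well. There 2.49% of 12856 genes were above 1 and 1.63% below -1, 9 of 14 immediate-early genes were above 1 (5177 against 2227 CPM), and 10 of 20 NF-kB targets were (9515 against 1009 CPM). The takinib members lay below the other takinib epithelial cells in both sums. The vehicle Spink4-only cells, at 653 CPM, also lay below the other vehicle epithelial cells in immediate-early genes, with 10 of 14 below -1. Map3k7 itself had 17 UMIs in 12 of the 41 takinib cells and 3 UMIs in 3 of the 19 vehicle cells, too few for a ratio.

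Neutrophil RNA moved with these lists. The 11 genes of that list, led by S100a8 and S100a9, summed to 8312 CPM in the takinib Spink4-only cells against 204 CPM in the vehicle ones, and to 17833 against 365 CPM in the other epithelial cells. S100a8 was in 37 of 41 takinib cells, at 0 to 341 UMIs with a median of 6, and at 0 in all 19 vehicle cells. The granule genes Camp and Ngp were at 12.9 and 31.5 CPM in takinib and at 0 in vehicle. Cxcl2, Il1b and Lcn2 are made by neutrophils too, and Il1b and Lcn2 stand in both lists. Ptprc, the leukocyte gene CD45, had a UMI in 15 of the 41 takinib and 1 of the 19 vehicle cells. The part of neutrophil RNA in the NF-kB and immediate-early differences was not tested. With takinib cells limited to no Ptprc and at most 5 UMIs of S100a8 plus S100a9, 14 remained.

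Antimicrobial genes were higher in the takinib Spink4-only cells, with 10 of 12 above 1 and a sum of 16617 against 4799 CPM. Lcn2 and Ltf among them are also in the neutrophil list, and without them 8 of 10 were above 1 and the sum was 13969 against 4603 CPM. In the other epithelial cells 8 of 15 were above 1, at 16171 against 5715 CPM. Dmbt1, a secreted scavenger protein, was at 6912 against 2959 CPM (1.22), in 40 of 41 and all 19 cells. Reg3b, an antibacterial lectin of injured pancreas, was at 1928 against 289 CPM, in 20 of 41 and 6 of 19 cells. Saa3, an acute-phase gene, was in 32 of 41 cells at 1353 CPM and had 1 UMI in vehicle. In the Gkn set the antimicrobial sum was 6791 against 3169 CPM. Reg3b was at 119 against 147 CPM there, while in the remaining Spink4-only cells it was at 2703 against 669 CPM. Single cells held 88% of the UMIs behind the 119 CPM and 90.2% of those behind the 669 CPM.

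**Figure D5:**
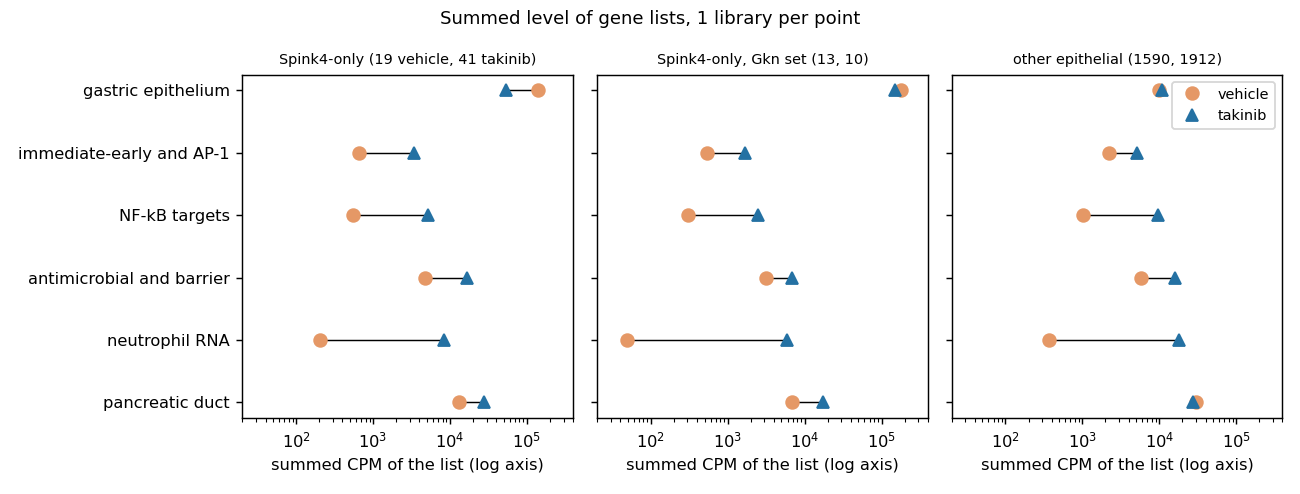
Summed CPM of 6 gene lists on a log axis in vehicle (circles) and takinib (triangles), 1 library per point, in the Spink4-only cells, in those of the Gkn set and in the other epithelial cells. Neutrophil RNA is 8312 against 204 CPM in the first panel and 17833 against 365 CPM in the last, and the gastric sums are 53131 against 139808 CPM in the first panel and 151505 against 179954 CPM in the second, whose cells were chosen by Gkn1 and Gkn2.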

How the data were processed

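Single-cell RNA was counted in 1 vehicle and 1 takinib library. The authors deposited unnormalized UMI counts for each gene and barcode, made with Cell Ranger 4 for vehicle and 6.1.1 for takinib, per the file headers; the submitters' processing notes name mm10 and Cell Ranger 2.1.1. The members and the gene lists were chosen with earlier results of these data known. Counts were summed per class and library and scaled to CPM, and ratios are log2 of CPM plus 10 on each side, over genes with at least 50 summed counts in either class; a gene past 1 or -1 counts as higher or lower. Intervals at 95% are exact Poisson for counts, Clopper-Pearson for shares, and a delta-method normal interval for log2 ratios, in place of the resampling first planned. Named genes are the 15 highest and 10 lowest by the smaller ratio of the 2 libraries, list members, and the leading genes of each class. The C1q, T, B and endothelial limits were set on members alone, as the rule has them, and 18.2% of vehicle and 19.9% of takinib other epithelial cells would fail them. No barcode was removed as a doublet: Scrublet's automatic caller marked 3.18% of vehicle and 0.00373% of takinib barcodes, so removing the top 6% of scores was an alternative. Ambient RNA was not corrected. Kept barcodes held 43879188 and 131951305 UMIs, at medians of 3594.5 and 3049.5. Scripts used Python 3.11.15, numpy 2.4.6, scipy 1.17.1, pandas 2.3.3, scanpy 1.11.5 and matplotlib 3.10.9, and were tested on simulated data. Some items are not reported here.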

Additional observations from a re-analysis of the deposited data

Results flagged for a closer look

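Muc13, a membrane mucin, lay on opposite sides of the other epithelial cells in the libraries, with a log2 ratio of members to other epithelial cells of 3.37 in vehicle and -1.67 in takinib. In vehicle 362 of its UMIs came from the 48 Muc2-bearing cells, and in takinib the members held 1 UMI. Slc26a3, an anion exchanger of absorptive cells, had ratios of -1.20 in vehicle, where the members held none, and 1.27 in takinib, where 7 members held 25 UMIs. Olfm4, a crypt and duct gene, had ratios of -1.39 and 1.58, with 83 UMIs in 14 takinib members. S100a8 had ratios of 1.30 in vehicle and -1.33 in takinib, and S100a9 of 1.52 and -1.44. In vehicle, 1 Muc2-bearing cell held 63 of the S100a8 UMIs. None of these differences between the libraries was tested.

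In vehicle 24 further barcodes past the filters held at least 5 UMIs of Muc2 plus Spink4 and were left out by the limits on C1q, Cd3e, Cd79a and Pecam1. Of these 22 passed 2 C1q UMIs and 19 held at least 2 Muc2 UMIs. In takinib 4 barcodes were left out in this way, all by C1q, and none held 2 Muc2 UMIs.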

How the results depend on the processing

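No paired analysis was possible because each group holds 1 library, and no replicate could be left out. The log2 ratio of the takinib to the vehicle share of members was -2.15, and was -3.32 with a gate of 10 UMIs, -0.92 with no Ptprc and at most 5 S100a8 plus S100a9 UMIs, and -0.95 as a share of the epithelial cells; thinning gives no value for it. Genes above 1 in members against other vehicle epithelial cells numbered 479, with 303 after thinning to 1000 UMIs, 812 with 1 CPM added, 188 with 50 CPM added and 806 with the median set to 0. In takinib they numbered 121, with 195 at the gate of 10, 320 thinned, 336 with 1 CPM and 45 with 50 CPM. In Muc2-bearing cells they numbered 654, with 410, 1032, 249 and 1029 under the settings given for vehicle. Genes past 1 either way between the libraries numbered 463 in all members, with 223 under the Ptprc limit, 65 thinned, 279 with 50 CPM and 923 with at least 20 counts. In Spink4-only cells they numbered 374, with 192 at the gate of 10, 101 under the Ptprc limit, 32 thinned, 214 with 50 CPM and 830 with at least 20 counts. With the C1q, Cd3e, Cd79a and Pecam1 limits also on the other epithelial cells, chosen after seeing the data, the counts were 476, 108 and 634.

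Of 717 values of single genes under an alternative, 17 changed sign, 278 moved by more than their counting error and 422 did not. Between all members of the libraries, Tff1, Gkn1 and Gkn2 became higher in takinib at the gate of 10 (0.59, 1.71 and 1.83) and under the Ptprc limit (0.26, 0.95 and 0.85). Tff1 and Gkn1 did so after thinning (0.0076 and 0.22) and as means of per-cell CPM (0.12 and 0.16). Against other takinib epithelial cells, Clu turned to -1.24 under the Ptprc limit, -0.014 thinned and -0.0062 per cell, Tff3 to -1.06 under the Ptprc limit, and Zg16 to 1.03 at a gate of 3. Between Spink4-only cells, Muc5ac turned to 0.32 under the Ptprc limit and Spink4 to 0.063 without vehicle cells that hold Y-linked UMIs.

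The limits are those of few cells. A class of 19 or 41 cells of 1 library gives no spread between animals. Single cells held much of the Zg16 and Tff1 RNA in Muc2-bearing, Fcgbp in vehicle Spink4-only and Gkn1 in takinib cells.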

Other observations

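Vehicle also held 81 barcodes with at least 5 UMIs of Muc2 plus Spink4 that failed the depth or mitochondrial filters, and takinib held none. Of the 81, 53 had an epithelial UMI, 67 had at least 2 Muc2 UMIs, 32 failed the mitochondrial limit alone and 49 failed on depth. Their median mitochondrial share was 43.3%, and they held 358 Mptx1 UMIs.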
